A study of Caenorhabditis elegans with 9 samples.

Results

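The RNA of whole wild-type L2 larvae of Caenorhabditis elegans is described here gene by gene, by level and by share of the total. The genes were all those with the status OK in the deposited table of FPKM, a count of sequenced fragments scaled to transcript length and library size, 20352 of 20389 listed genes. The study sequenced total RNA of 9 libraries from an hsf-1 mutant series, and the 3 wild-type libraries are used. They came from the strain N2 at 20 °C, each from 500 larvae pooled over several collections at 30 h after a 2 h egg lay, and the labels do not say whether they were grown apart. The authors gave 1 FPKM per gene for the wild type, combined over its libraries, with a lower and an upper bound whose level is not stated. Values are therefore printed with these bounds in parentheses, no spread between libraries can be given, and no test between groups was made. The depth of the libraries is unknown. In all, 11835 genes or 58.2% were at an FPKM of at least 1, 1452 of them at 100 or more, and 5410 genes or 26.6% were listed at 0.

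As background, the second larval stage lies between the first and second postembryonic moults of a fast-growing animal. The larva has most of its feeding, muscle, epidermal and neuronal cells, while the germ line is still a small group of proliferating cells. RNA of a growing animal is rich in messages of the translation machinery. The worm genome also holds very large families, such as the chemoreceptor GPCRs of sensory neurons, the F-box proteins that bring substrates to ubiquitin ligases, and the C-type lectins, many of whose members are used in few cells or under special conditions.

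Marker genes were set against the labelled stage, where an exact 0 can be a failed estimate and sets no upper limit. All 10 body wall muscle markers had an FPKM of at least 1, led by unc-27 (troponin I) at 2318 (1384 to 3216), and so did all 8 pharynx, all 10 intestine and all 10 epidermis markers. Levels within these sets ranged widely, between 4.29 for mtl-2 and 2003 for asp-1 in the intestine set, and between 1.29 for bli-1 and 1289 for dpy-13 in the epidermis set. The collagen gene bli-1, whose lower bound was 0, is also on the adult list. The intestinal aspartyl protease asp-1 had bounds of 1282 and 2724, and the cuticle collagen dpy-13 of 684 and 1822. The coelomocyte genes cup-4 at 3.76 (0.0762 to 7.39) and unc-122 at 0.909 (0 to 2.01), and clh-3 of the excretory set at 2.25 (0 to 4.91), were low, while vha-8 of that set, a vacuolar ATPase gene used in many cells, was at 1754 (995 to 2513). Of the vitellogenins, the yolk proteins of adults, vit-3, vit-4 and vit-5 were listed at 0 and vit-1, vit-2 and vit-6 lay between 0.535 and 0.761. The adult cuticle collagen col-19 was listed at 0, as were the dauer-linked genes col-2, col-40 and hsp-12.6. The highest of the 4 male markers found was mab-3 at 4.93 (0 to 10.7), and the highest of the 10 sperm markers was msp-33 at 2.18 (0 to 4.16).

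Germ line RNA was present, at levels below those of the highest muscle and intestine markers. Of 10 germ line markers 9 had an FPKM of at least 1, led by the Piwi protein gene prg-1 at 42 (15.8 to 68.1) and the Vasa-like helicase gene glh-1 at 31 (12.8 to 49.3), and nos-2 was listed at 0. The summed FPKM of the germ line markers was 133, against 6529 for the 10 body wall muscle markers and 3927 for the 10 intestine markers. Each sum depends on the genes picked, as 3 genes made up 73.2% of the germ line sum, 74.7% of the muscle sum and 91.4% of the intestine sum. In such bulk samples fewer cells of a type, less RNA per cell and the choice of marker genes cannot be told apart. Of 10 oocyte and eggshell markers 5 had an FPKM of at least 1, and their median was 0.975. The 2 highest, cbd-1 at 15.3 (4.98 to 25.6) and oma-1 at 11.3 (0.986 to 21.7), were the only ones with a lower bound above 0. The yolk receptor gene rme-2 was at 0.303 (0 to 0.601), and perm-2 was listed at 0.

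**Figure D1:**
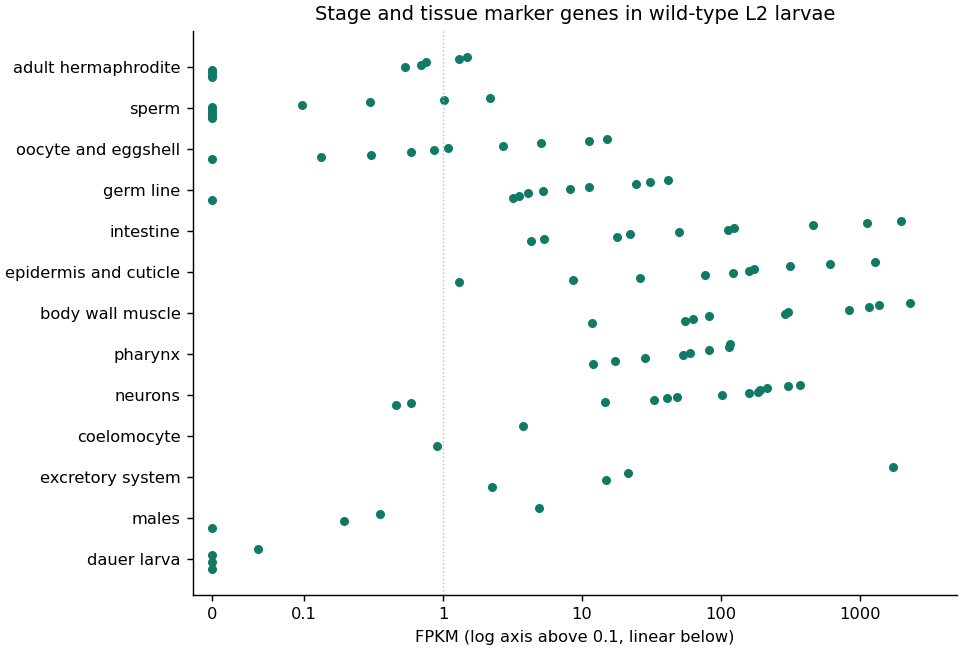
FPKM of the stage and tissue marker genes in wild-type L2 larvae, 1 point per gene, with a log axis above 0.1 and a linear axis below; the dotted line is an FPKM of 1. Muscle, pharynx, intestine and epidermis markers all lie at 1 or above, and the 4 dauer markers lie at or below 0.0503.

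Neuronal markers spanned a wide range. The neuroendocrine chaperone gene sbt-1 was at 370 (184 to 556), the synaptobrevin gene snb-1 at 303 (141 to 464) and the peptide-processing convertase gene egl-3 at 215 (116 to 314). Also used by most neurons, unc-119 was at 33.2 (2.78 to 63.7), and the dense-core vesicle gene ida-1 was at 48.1 (22.3 to 73.8). Among genes of one transmitter, unc-25, which makes GABA, was at 41.2 (14.1 to 68.3), with an interval that overlapped both, and cat-2, needed for dopamine, at 14.6 (0.145 to 29.4). The serotonin enzyme gene tph-1 was at 0.586 (0 to 2.57) and the glutamate transporter gene eat-4 at 0.456 (0 to 3.41), and neither lower bound lay above 0.

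The RNA was concentrated in few genes. The 10 highest genes held 8.38% of the summed FPKM, the 30 highest 17.4%, the 100 highest 36.6% and the 1000 highest 74.0%. Adding genes from the top, 216 genes reached 50% of the sum and 3220 genes reached 90%. The 175 genes above an FPKM of 1000 made up 0.860% of all genes and 46.4% of the sum. The 5642 genes above 10 and up to 100 were the largest class above 0 and held 18.5%, while the 2425 genes above 0.1 and up to 1 held 0.104%.

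The interval behind a value narrowed as the level rose. The half-width of the interval had a median of 41.9% of the value for genes above 1000, 55.6% above 100 and up to 1000, 77.9% above 10 and up to 100, and 101% above 1 and up to 10. A lower bound above 0 was given for 8091 genes, among them 1677 of the 4741 genes above 1 and up to 10. The median transcript length was 652 bases among the 100 highest genes and 1012 bases among the 1000 highest. FPKM is a level per length, so these shares count transcripts rather than fragments: weighted by transcript length, the 100 highest genes by this measure held 26.2%.

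**Figure D2:**
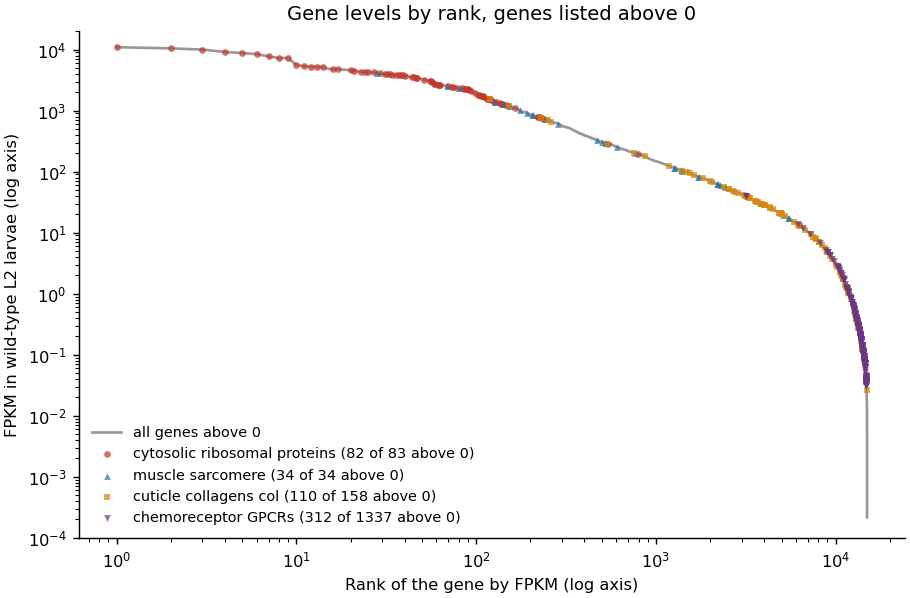
FPKM of each gene above 0 against its rank, both on log axes, with the members of 4 groups marked on the curve of all genes. Ribosomal protein genes fill the top of the curve, 312 of 1337 chemoreceptor genes appear at all, and the col genes are spread from near the top to the foot of the curve.

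Ribosomal protein genes were the largest of the 77 functional groups by share of the summed FPKM. The sum holds nothing from the 12 listed mitochondrial genes, which were all at 0. The 83 genes of the cytosolic ribosome held 27.3% of the summed FPKM, or 25.7 to 28.9% when the half-widths of the deposited intervals are added in quadrature. Weighted by transcript length the share was 13%. They took all 10 of the highest places, 23 of the highest 30 and 57 of the highest 100. Their median FPKM was 2692, against 2.81 over all genes.

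The highest gene was rpl-27A of the large subunit at 10971 (5805 to 16136), at 2069682 to 2070612 on chromosome I in the build ce10. It was followed by rpl-18A at 10479 (6685 to 14275) on chromosome IV and by rps-15 of the small subunit at 10009 (6266 to 13758) on chromosome I. The order of these genes was not resolved: the intervals of 25 other genes overlapped that of rpl-27A, and the first gene in rank wholly below it was fau-1, a ribosomal protein fused to a ubiquitin-like part, at 4779 (1860 to 5510) and rank 16. The value of rpl-38, 4220, lay outside its own bounds of 870 and 3084, as did those of 32 genes in all.

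Most subunits of the ribosome are needed in equal number in the particle, yet their FPKM covered a wide range. The 32 genes of the small subunit lay between 736 for rps-15A and 10009 for rps-15, a ratio of 13.6. Among the 51 genes of the large subunit and its stalk the 10th and 90th percentiles were 789 and 7759, a ratio of 9.83. These 51 genes include paralog copies of the same protein, and the lower copies lie at the low end. The 10th percentile was the value of rplp-2.2, against 1794 for rplp-2.1. Below it lay rpl-23A.2 at 783, rpl-11.1 at 286 and rpl-37.2, and also rpl-30 at 765, which is in no paralog set compared here. The lowest value above 0 was 193 (0 to 424) for rpl-37.2, whose paralog rpl-37.1 was at 2307, and rpl-42 was listed at 0 with both bounds at 0. A gene of every cell at 0 shows that an exact 0 in this table can be a failed estimate, so genes are called listed at 0 and not absent.

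Of the 30 highest genes, 7 were not ribosomal protein genes. The adenine nucleotide translocator ant-1.1, which exchanges ATP and ADP across the inner mitochondrial membrane, was the highest gene outside the ribosome at 4853 (3096 to 6613). It was followed by icd-1, a subunit of the nascent polypeptide-associated complex, at 4693 (2843 to 6542) and by ahcy-1, the adenosylhomocysteinase of the methionine cycle, at 4664 (3001 to 6326). Elongation factor eef-1A.1 stood at 4423 (2837 to 6011), the vacuolar ATPase subunit vha-10 at 4257 (2570 to 5942), the tropomyosin gene lev-11 at 4165 (2546 to 5788) and the ribosome-bound scaffold rack-1 at 4002 (2329 to 5585). The intervals of these 7 genes overlapped each other.

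Translation as a whole, with ribosomal proteins, initiation and elongation factors, tRNA synthetases and ribosome assembly, held 29.7% of the summed FPKM in 172 genes. The 6 elongation factor genes held 0.946%, all at an FPKM of at least 309. The 34 initiation factor genes held 0.931%, of which 3 genes made up 77.9%, led by inf-1 (eIF4A) at 3695 (1584 to 5808) and iff-2 (eIF5A) at 3350 (1941 to 4760). Their median was 75.9. The 70 mitochondrial ribosomal protein genes were far lower than the cytosolic ones, with a median of 48.6 and a highest value of 304 for mrps-28, and none was listed at 0.

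Sarcomere genes came second among the 77 functional groups listed. The 15655 genes in no listed group held 47.7% of the summed FPKM. The 34 genes of the contractile apparatus held 1.99% of the summed FPKM (1.74 to 2.25), and none was listed at 0. After lev-11 came the myosin light chain gene mlc-3 at 2517 (1429 to 3610), unc-27, the paramyosin gene unc-15 at 1381 (869 to 1894) and mlc-2 at 1280 (658 to 1902). Among the myosin heavy chains of muscle, unc-54 of the body wall was at 843 (523 to 1163), against 62.8 (35.1 to 90.6) for myo-3 of the same cells and 115 (68.9 to 161) and 82.5 (42.9 to 122.1) for the pharyngeal myo-2 and myo-1. The interval of unc-54 lay above those of the others.

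Energy and proton pumping followed. The 50 nuclear genes of the respiratory chain and ATP synthase held 1.82% (1.63 to 2.00), which overlaps the sarcomere share, with a median of 209 and none at 0, led by atp-1, the alpha subunit of ATP synthase, at 2098 (1339 to 2858). All 12 listed genes of the mitochondrial genome, 9 of them with the status OK, were listed at 0, so the mitochondrially encoded members of these complexes cannot be read from the table. The 21 vacuolar ATPase genes held 1.44%, and the lowest of them, in neither of the 2 sectors given next, was at 0.480. The 8 genes of its cytosolic V1 sector lay between 364 and 4257, while the 10 genes of its membrane V0 sector reached from 6.53 (0.755 to 12.3) for vha-7 to 1479 for vha-2.

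Among groups of metabolic genes the share listed at 0 differed, against 26.6% of all genes. None of the 18 genes of the citrate and glyoxylate cycles was listed at 0, and their median was 200, led by the malate dehydrogenase gene mdh-2 at 1290.0 (767 to 1813). The 22 glycolysis and gluconeogenesis genes had a median of 120.1, with 1 gene at 0. The 8 genes of the methionine cycle and phosphocholine synthesis held 0.727%, of which 3 genes made up 87.5% and the lowest was at 0.348, led by ahcy-1, the S-adenosylmethionine synthetase gene sams-1 at 1235 (788 to 1681) and the methyltransferase gene pmt-1 at 608 (335 to 881). The 17 genes of fatty acid and retinol binding proteins had a median of 78.1 with 1 gene at 0, and 3 genes made up 73.4% of their sum, led by far-1 at 2054 (1143 to 2969) and far-2 at 1325 (711 to 1939). The 75 cytochrome P450 genes, which modify foreign compounds among others, held 0.0300%, and the highest, cyp-35C1, was at 41.2 (15.7 to 66.8). Of these 75 genes 18 or 24% were at 0, near the share of all genes. At an FPKM of at least 1 were 41.3% of them, against 58.2% of all genes. Of 67 UDP-glucuronosyl transferase genes 4 or 5.97% were at 0, and of 47 glutathione transferase genes 7 or 14.9% were.

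Membrane traffic and secretion were among the larger of the listed groups. The 32 rab and arf GTPase genes held 1.25%, of which 3 genes made up 58%: rab-1 at 2591 (1587 to 3596), which acts between the endoplasmic reticulum and the Golgi, rab-11.1 at 2448 (1418 to 3478) of recycling endosomes and arf-1 at 2381 (1384 to 3379). The 7 genes of the translocon through which secreted proteins pass lay between 320 for trap-2 and 3822 for trap-3. The sodium pump gene eat-6 was at 1028 (628 to 1428) and the aquaporin gene aqp-2 at 783 (443 to 1123). Among secreted hydrolases, the aspartyl protease asp-6 was at 1262 (734 to 1791) after asp-1, and the lysozyme gene ilys-5 was at 1103 (587 to 1620).

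Genes of protein folding and turnover covered a range of levels. The constitutive cytosolic chaperones hsp-1 (Hsc70) at 2492 (1587 to 3399) and hsp-90 at 2062 (1217 to 2907) led a group of 24 genes with 0.889% of the sum, none at 0. The 8 CCT chaperonin genes, whose products stand in 1 ring, lay between 64.1 for cct-8 and 455 for cct-7. The 14 genes of the 20S proteasome lay between 26.3 for pas-7 and 389 for pas-5, and the 17 genes of its 19S cap between 26.9 and 232. The rpn class also has 1 gene at 0.282, which is not among these 17. In the endoplasmic reticulum, pdi-2, which also serves collagen hydroxylation, was at 2323 (1423 to 3224) and the calreticulin gene crt-1 at 1858 (1135 to 2582).

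Most heat-inducible chaperone genes were at or near 0. Of 11 genes of the hsp-16 and inducible hsp-70 type, 6 were listed at 0 and 3 were at an FPKM of at least 1. The highest was hsp-16.2 at 97.1 (23.2 to 170), while hsp-16.41, which shares its deposited locus, was at 5.02 (0 to 22.7). The hsp-16 genes include near-identical copies between which reads can be split, so these values are uncertain. The heat shock factor gene hsf-1, the gene studied in the series, was at 25.3 (7.62 to 43.1).

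**Figure D3:**
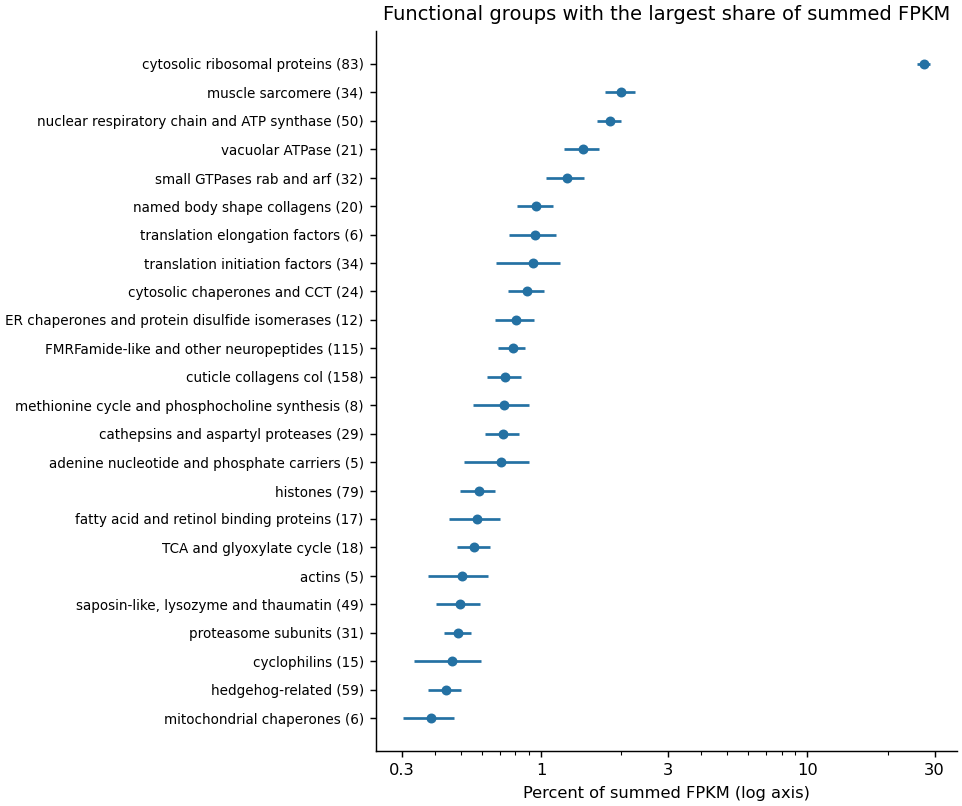
Percent of the summed FPKM in the 24 functional groups with the largest share, on a log axis, with the number of genes of each group in parentheses; lines are the deposited half-widths added in quadrature. Ribosomal proteins at 27.3% lie far to the right of the sarcomere group at 1.99%, and from the sarcomere group down each group overlaps the next.

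Collagen genes named for body shape were mostly high, while the numbered col genes ranged from 0 to over 1000. The cuticle is an extracellular collagen coat that is rebuilt at each moult, with collagens made in waves. The 20 collagen genes named for body shape held 0.958% with a median of 275, 15 of them at 100 or more and 1 at 0, led by sqt-3 at 2682 (1529 to 3725), dpy-13, dpy-5 at 1160 (687 to 1632) and dpy-4 at 1084 (650 to 1518). The 158 genes of the col class held 0.733%: 48 or 30.4% were listed at 0, against 26.6% of all genes, 86 or 54.4% were at an FPKM of at least 1, against 58.2% of all genes, and 10 genes made up 76.7% of the class. Its highest members were the neighbours col-17 at 1541 (860 to 2208) and col-73 at 1184 (625 to 1677) on chromosome II.

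The zona pellucida protein genes noah-1 at 1012 (627 to 1398) and noah-2 at 553 (346 to 760) and the cuticlin gene cut-2 at 599.5 (288 to 904) made up 86.9% of a group of 40. Among 59 hedgehog-related genes, wrt-10 was at 673 (357 to 987), wrt-2 at 616 (330 to 902) and grd-5 at 523 (187 to 684), and 13 genes were listed at 0.

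Genes of developmental timing were all above 0. Each of the 13 protein-coding heterochronic genes listed, which set the succession of larval stages, was at an FPKM of at least 21.5 with a lower bound above 0. The Period-related gene lin-42 was the highest of the 13 at 591 (338 to 844), followed by the steroid receptor gene daf-12 at 163 (45 to 282) and lin-66 at 149 (29.8 to 356.5). The gene lin-41 was at 80.6 (42.1 to 119.2), lin-14 at 57.3 (21.9 to 92.7), hbl-1 at 34.9 (13.6 to 56.2) and lin-28 at 22.5 (0.631 to 45.1). The lower bound of lin-42 lay above the upper bound of daf-12, while that of lin-66 reached into it, and the intervals of the genes below lin-42 overlapped.

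Genes of cell division and of gene control lay lower. The 16 DNA replication genes had a median of 20.2 with none at 0, led by pcn-1, the sliding clamp of DNA polymerase, at 246 (104 to 389). The 17 cyclin and cyclin-dependent kinase genes had a median of 8.73 and 1 gene at 0. Of 23 argonaute genes 3 were at 0, and alg-1 of the microRNA pathway was the highest at 127.7 (72.1 to 183), against 31.3 for its paralog alg-2. Of 81 homeobox genes 11 were at 0, the median was 2.09, and ceh-20, a Hox cofactor, was the highest at 121.6 (49.1 to 194).

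Paralogs were compared in 21 chosen sets, some with members used in different tissues. In 14 of the sets the intervals of the 2 highest copies did not overlap. The same share was not counted for other pairs of genes, so this describes the chosen sets only. The ferritin ftn-2 at 840 (381 to 1232) stood against ftn-1 at 13 (1.62 to 24.3), and the desaturase fat-6 at 237 (103 to 372) against fat-7 at 5.46 (0 to 13.7). In the same way ctl-2 made up 99.8% of the catalase sum, ant-1.1 nearly all of the translocators and tbb-2 76.7% of the beta tubulins. The actin act-4 was at 3201, 2.84 times the intestinal actin act-5 at 1127 (681 to 1574), and made up 61.9% of the actin sum. Intervals overlapped for eef-1A.1 and eef-1A.2, with eef-1A.2 at 2589, and for the alpha tubulins tba-1 at 476 and tba-2 at 386. Near-identical copies can share reads, which bears on these sets, for example on cyc-2.2, listed at 0 beside cyc-2.1 at 1199.

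Chemoreceptor genes were the largest block listed at 0. Of 1337 genes of the sr and str classes, the receptors with which sensory neurons detect odours and other chemicals, 1025 or 76.7% were listed at 0, against 26.6% of all genes. These were 18.9% of all genes at 0. A further 271 lay above 0 and under 1, 41 were at an FPKM of at least 1, and 5 had a lower bound above 0. The whole family held 0.0254% of the summed FPKM.

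The highest chemoreceptor genes were srr-4 at 39.4 (10.4 to 68.4), srw-85 at 39.4 (7.78 to 71.0) and srv-1 at 13.7 (1.73 to 25.8). Together they made up 35.6% of the family's sum, and their intervals overlapped. The share listed at 0 varied by class: 102 of 114 srw genes and 63 of 73 srbc genes were at 0, against 32 of 52 sre genes, 14 of 23 srab genes and 5 of 10 srr genes. No gene of the srbc, srt, sru, srb or sre class reached an FPKM of 1.

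Fewer neuropeptide genes were listed at 0, 6.09%, than the 26.6% of all genes. Of 115 neuropeptide genes 7 were listed at 0 and 102 were at an FPKM of at least 1, with 0.783% of the sum. The 3 highest were nlp-24 at 871 (237 to 1060), nlp-36 at 680 (65.6 to 1161) and nlp-33 at 620, whose value lay above its bounds of 134.8 and 577. Of these, nlp-24 and nlp-33 belong to the nlp genes that epidermis is known to use as antimicrobial peptides. Of 90 neuropeptide receptor genes 7 were listed at 0, and none exceeded 15.8. Among 34 receptor guanylyl cyclase genes 3 were at 0 and 22 lay above 0 and under 1, the highest being gcy-28 at 18.7 (6.02 to 31.4). Of 40 insulin-like peptide genes 15 were at 0, and ins-27 at 104.2 (1.39 to 223) and daf-28 at 82.2 (22 to 140) were the highest. The 34 genes of synaptic transmission had a median of 16.5 with none at 0, and 2 of 47 two-pore potassium channel genes were at 0.

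**Figure D4:**
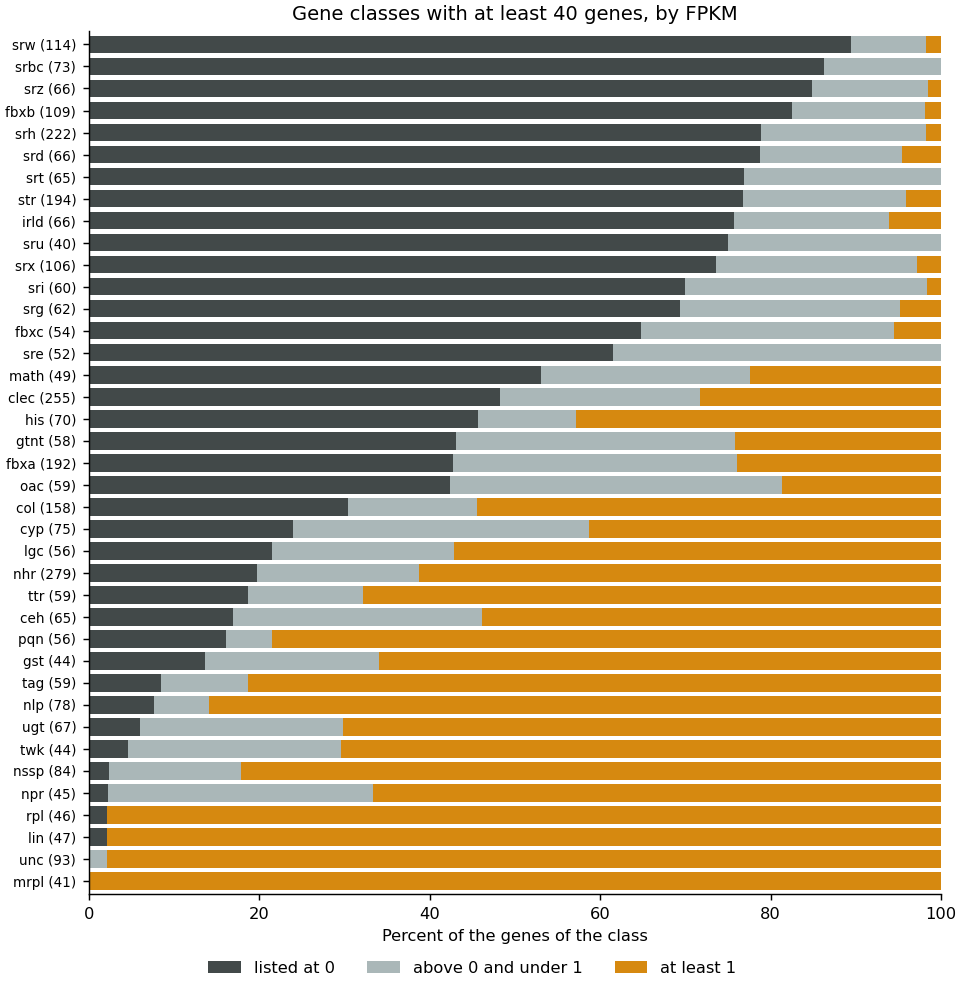
Shares of genes listed at 0, above 0 and under 1, and at least 1 FPKM in the 39 gene classes with at least 40 genes, with the number of genes in parentheses. Chemoreceptor classes and fbxb and irld fill the top, and the unc and mrpl classes at the foot have no gene listed at 0.

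Classes outside the chemoreceptors with most genes listed at 0 included those of sperm proteins and of ubiquitin ligase adaptors. Of 183 gene classes with at least 10 genes, where a class is the part of the symbol before the dash, 33 had over 50% of their genes at 0, and 19 of these were chemoreceptor classes. All 12 ssp genes and 27 of 30 msp genes, which encode sperm proteins, were listed at 0. So were 90 of 109 fbxb and 35 of 54 fbxc genes, against 207 of 355 over all 3 F-box classes. The highest F-box gene was fbxa-72 at 95.3 (36.5 to 154), and skr-1, a SKP1-like partner of F-box proteins, was at 744 (325 to 1157). Of 19 T-box genes 17 were at 0 and tbx-2, needed for pharyngeal muscle, was at 68.1 (31.1 to 105.1).

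Large families of defence and regulation differed in the share of genes listed at 0, which was 26.6% over all genes. Of 255 C-type lectin genes 123 or 48.2% were listed at 0 and 72 or 28.2% were at an FPKM of at least 1, against 58.2% of all genes. In this family clec-63 at 724 (415 to 1033), clec-180 at 209 (118.9 to 299) and clec-1 at 172 (76.1 to 267) made up 51.8% of the sum. Of 284 nuclear hormone receptor genes 55 or 19.4% were at 0 and 175 or 61.6% at an FPKM of at least 1, near the share of all genes. The 3 highest, daf-12, nhr-97 at 152 (70.8 to 233) and nhr-41 at 139 (73.2 to 206), made up 16.5% of the sum of these receptors. Of 79 histone genes 33 or 41.8% were at 0, and his-37, an H4 gene, was at 995 (340 to 1324). Near-identical histone copies can share reads, and 56 of 70 his genes shared a spliced length with another on the same chromosome. At the other end, 62 classes had no gene at 0, among them mrpl, mrps, rps, vha, rab, eif, npp and unc.

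Zeros were also counted by the presence of a copy of equal length. Among genes with a class name, 816 shared their median spliced length with another gene of the same class and chromosome, and 75.1% of them were at 0, against 17.6% of the 10584 others. Within the chemoreceptors the shares were 85.9% of 509 and 71.0% of 828, and among classed genes outside them 57.3% of 307 and 13% of 9756. Within the his class they were 50% of 56 and 28.6% of 14, and within col 38.9% of 18 and 29.3% of 140. Within fbxb they were 85.7% of 7 and 82.4% of 102. The nhr class went the other way, with 14.3% of 35 and 20.6% of 243. How far shared reads set these zeros was not tested. With an FPKM under 1 in place of an exact 0, 8517 genes would be counted, and 96.9% of the chemoreceptor genes.

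Chromosomes and their regions had different shares of genes at 0. Of chromosome V 38.2% of 5116 genes were listed at 0, of chromosome II 29.1%, of IV 27.5%, of X 19.9%, of I 19% and of III 14.9%. When each chromosome is divided into a centre of 50% of its length and 2 arms, 33.6% of 9250 arm genes and 20.7% of 11093 centre genes were at 0. The arms exceeded the centre on each of the 6 chromosomes, from 48.2% and 29% on V to 18.2% and 12.5% on III. Without the genes of families and classes that had over 50% of members at 0, the shares were 27% of 7925 arm genes and 17.2% of 10387 centre genes.

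**Figure D5:**
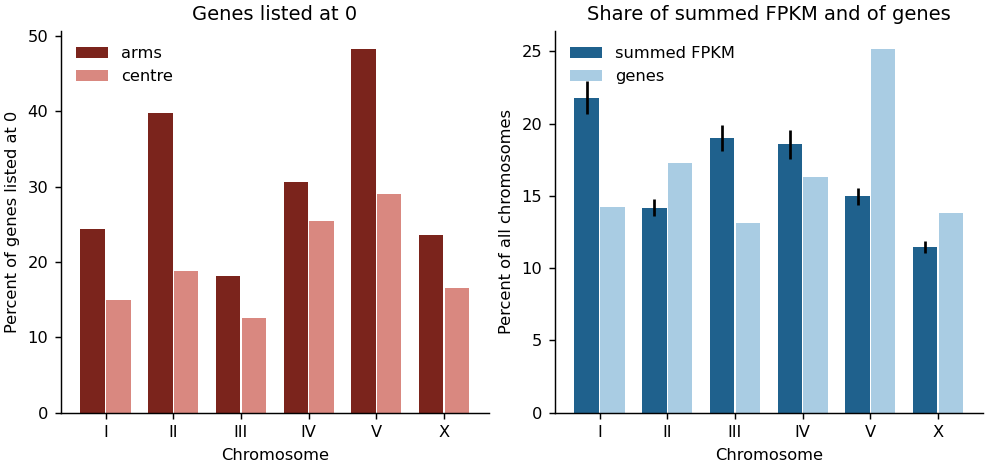
Left, percent of genes listed at 0 in the arms and in the centre of each chromosome. Right, percent of the summed FPKM and of the genes by chromosome, where the lines are the deposited half-widths added in quadrature; chromosome V has 25.1% of the genes and 15% of the summed FPKM.

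Shares of the summed FPKM did not follow gene number. Chromosome I held 21.8% of the sum in 14.2% of the genes, III 19% in 13.1%, IV 18.6% in 16.3%, V 15% in 25.1%, II 14.2% in 17.3% and X 11.5% in 13.8%. Leaving out the 100 highest genes changed these shares. Chromosome V still stayed far below its 25.1% of the genes, while I and III stayed above theirs. Chromosome X moved from below its 13.8% of the genes to above it, and II and IV came close to their shares of the genes. Without the 100 highest genes, the shares were 18.2% for I, 17.1% for II, 16.8% for III, 16.4% for V, 16.3% for IV and 15.3% for X.

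Some stretches of a chromosome held only genes listed at 0. There were 41 runs of at least 10 neighbouring genes at 0, with 604 genes in all, of which 20 runs lay on chromosome V and 11 on chromosome II. The longest held 53 genes at 2342017 to 2560738 on chromosome V (ce10), with 8 str, 6 srd, 2 srt, 2 srbc and 3 irld genes, and 6 pseudogenes. In this run 33 of the 53 genes had a spliced length equal to that of another gene of the run, for example mct-1 and mct-2 with 1179 bases each and srt-1 and srt-2 with 1041 bases each. The next run, of 32 genes at 2911166 to 3024064 on the same chromosome, held 19 srw and 5 srh genes, and 13 of its genes shared a length.

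Further runs were of other families. A run of 26 genes at 5218824 to 5278062 on chromosome IV held the sperm protein gene msp-19, the T-box genes tbx-30 and tbx-42, and 4 pseudogenes. On chromosome II, 25 genes at 3569433 to 3657735 included 7 lectin genes, clec-128 to clec-134, with 4 srh and 3 fbxb genes, and 2 of the 25 shared a length. On the same chromosome 22 genes at 1676417 to 1727112 included 9 fbxb, 3 fbxc and 3 btb genes, none with a shared length. A run of 25 genes at 12347691 to 12418790 on chromosome I held 4 gtnt and 3 oac genes, again with no shared length.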

How the data were processed

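Per the submitters' processing notes, the reads were processed with TopHat2 and Cuffdiff on ce10; the sources used here give no versions, annotation, filters or strand setting. By the labels' protocols, libraries were made with the Nugen Ovation V2 kit (SPIA amplification). The authors deposited 1 FPKM per gene and genotype with 2 bounds, so the libraries were combined before deposit. The depth per library is unknown, and precision is known only from the bounds. Of the 2 deposited tables, 7 columns of other genotypes were not used.

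Genes with the wild-type status OK were ranked by FPKM with pandas 2.3.3 and Python 3.11.15, with no filter on low values and no pseudocount. Shares are percents of the summed FPKM. Bounds of a share add the deposited half-widths in quadrature over a fixed total. Symbols for 19847 genes came from the RefSeq table of WBcel235, matched by sequence name, and median spliced lengths for 19867 genes from release 115 of Ensembl. Positions are the deposited ones, with starts counted from 1, and overlapping genes can share a locus. Named genes were the 30 highest, up to 5 highest of each of 77 functional groups (3 where over 50% were at 0), the markers and the 5 highest with only a sequence name; members of complexes, paralog sets and runs, and hsf-1, were named besides. The rule, gene lists, members and alternatives were chosen with earlier results of these data known. The functions used for the alternatives recovered known shares and zeros from a simulated table. All lengths in it were equal, so the weighting by length was not checked. The summaries of groups, classes, markers, chromosomes and runs were not checked in this way. Sequences were not used here.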

Additional observations from a re-analysis of the deposited data

How the results depend on the processing

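Of 42 alternatives over 11 results, 26 stayed within the range set for each: 1.5 times a count, the quadrature bounds of a share, and the exact 95% binomial interval of the chemoreceptor percent. These ranges are tolerances and not tests, and the binomial one treats genes as independent although some may share reads. Some settings could hardly move a result, such as adding the 37 genes with the status LOWDATA. The range of 1.5 times also held 8091 genes with a lower bound above 0 and 8931 genes at an FPKM of at least 5, against 11835 at 1 or more. Genes listed at 0 were 5410, and genes under an FPKM of 1 were 8517. The share of the 100 highest genes, 36.6%, was 41.1% over genes with a locus of their own and 26.2% by FPKM times exonic length. The ribosomal protein share, 27.3%, was 13% by that weight. The percent of chemoreceptor genes at 0, 76.7%, was 84.0% under an FPKM of 0.1, 96.9% under 1 and, in an alternative chosen after seeing the data, 71.0% among genes that share no length within class and chromosome. Without the 100 highest genes, the chromosome shares were 18.2% for I, 17.1% for II, 16.8% for III, 16.3% for IV, 16.4% for V and 15.3% for X. By FPKM times exonic length they were 20.4% for I, 16.9% for IV and 14.8% for X. These follow from which genes, weights or minimum each setting uses. No paired analysis was possible because the table holds 1 value per gene. For the same reason no library could be left out. With depth unknown, a value of 0 sets no upper limit on a gene's level.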

Other observations

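Genes known only by a sequence name numbered 8940 and held 16.4% of the summed FPKM, against 83.6% for the 11412 genes with a symbol. Of them 32.8% were listed at 0, against 21.7% of the genes with a symbol. The 5 highest were F41F3.3 at 3563 (2203 to 4924), F53F1.4 at 3232 (1330 to 3614), C05G5.7, F01G4.6 at 2405 (1449 to 3357) and Y69A2AR.18 at 2305 (1395 to 3215). The value of C05G5.7, 2559, lay outside its bounds of 18.2 and 306, and its median spliced length was 111 bases. All 5 are annotated as protein coding.

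Non-coding genes and pseudogenes were a minor part of the table. Protein-coding genes held 99.5% of the summed FPKM. Of 666 pseudogenes 65% were listed at 0, against 24.9% of 19151 protein-coding genes, and the pseudogenes together held 0.0498%. Among 13 listed lncRNA genes, 4 were at 0 and lep-5, a heterochronic lncRNA, was at 948 (507 to 1390), rank 187, above lin-42 at 591, the highest of the listed timing genes. It was chosen after its value was seen.

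Genes with the status LOWDATA, 37 in all, were left out of the counts. Of these 6 were at an FPKM of at least 100, the highest being cyn-3 at 326.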
